A study of Homo sapiens with 8 samples.

Results

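The chorionic gonadotropin beta genes CGB1, CGB2, CGB7 and CGB8 were followed across 4 treatments of PC-3 cells, an established cell line from a human prostate cancer. The members are the 4 genes of this family for which the platform's list of probes gives a feature with exactly 1 symbol, 1 feature each, out of 23854 genes tested. They were chosen by symbol, with the array levels of these genes in all 4 groups and the differences between the groups known, so the levels and the differences between groups are a description and carry no test. Cells received calcitriol (10 nM) together with TGF-β1 (5 ng/mL), TGF-β1 alone at 5 ng/mL or calcitriol alone at 10 nM for 24 h, or were left untreated, and each group has 2 Clariom D arrays from independent experiments, lettered A and B. All groups grew in the same serum-supplemented medium, and the labels give no vehicle and no incubation time for the controls.

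Chorionic gonadotropin is the hormone of early pregnancy. Like luteinizing hormone, follicle-stimulating hormone and thyrotropin, it joins a common alpha subunit, the product of CGA, to a beta subunit that sets its identity, and it acts through LHCGR, the receptor it shares with luteinizing hormone. The beta subunit is encoded by several near-identical genes that arose by duplication of LHB, the luteinizing hormone beta gene, and that lie beside it on chromosome 19. CGB3, CGB5, CGB7 and CGB8 encode the hormone's beta subunit, whereas CGB1 and CGB2 carry a different 5′ region and are predicted to encode an unrelated protein. The placental syncytiotrophoblast is the usual source, and carcinomas of several organs are known to make the beta subunit without the alpha subunit.

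The near-identity of the copies bears on every value that follows. CGB3 and CGB5 have no feature of their own in the list of probes. They appear on features that name several genes, 1 for CGB5 and CGB8 and 1 for CGB3 and CGB5, and these 2 features are reported as features only. The probes' letters were not analysed here, so RNA from one copy may be read by the features of others, and a value named for a gene is the value of its feature.

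The sequences just upstream of the annotated starts were compared between the copies. The 250 bases before each RefSeq start (GRCh38.p14) are given 5′ to 3′ for the 4 members and for LHB, the parent of the family, with capitals on matches to the motifs described after them.
CGB1, chr19:49036896-49037145, minus strand: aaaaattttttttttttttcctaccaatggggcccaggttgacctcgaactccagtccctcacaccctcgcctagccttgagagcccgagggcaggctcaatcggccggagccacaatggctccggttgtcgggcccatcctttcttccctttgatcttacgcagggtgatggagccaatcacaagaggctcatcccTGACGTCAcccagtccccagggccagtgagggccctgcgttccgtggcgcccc
CGB2, chr19:49031640-49031889, plus strand: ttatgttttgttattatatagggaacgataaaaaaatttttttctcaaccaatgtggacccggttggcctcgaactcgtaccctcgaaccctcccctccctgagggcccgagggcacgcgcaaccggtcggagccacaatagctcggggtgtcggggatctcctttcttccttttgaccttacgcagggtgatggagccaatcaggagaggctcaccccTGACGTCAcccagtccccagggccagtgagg
CGB8, chr19:49049112-49049361, minus strand: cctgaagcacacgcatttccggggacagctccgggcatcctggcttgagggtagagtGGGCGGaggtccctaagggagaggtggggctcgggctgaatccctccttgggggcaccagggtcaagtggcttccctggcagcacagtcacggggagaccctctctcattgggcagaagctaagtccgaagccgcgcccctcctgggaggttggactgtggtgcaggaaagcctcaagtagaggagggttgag
CGB7, chr19:49057750-49057999, minus strand: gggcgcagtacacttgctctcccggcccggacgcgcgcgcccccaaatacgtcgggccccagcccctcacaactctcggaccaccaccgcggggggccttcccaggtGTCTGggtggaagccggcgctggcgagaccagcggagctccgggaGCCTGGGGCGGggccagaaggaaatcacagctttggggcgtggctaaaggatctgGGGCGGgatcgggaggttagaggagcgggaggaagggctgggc
LHB, chr19:49017092-49017341, minus strand: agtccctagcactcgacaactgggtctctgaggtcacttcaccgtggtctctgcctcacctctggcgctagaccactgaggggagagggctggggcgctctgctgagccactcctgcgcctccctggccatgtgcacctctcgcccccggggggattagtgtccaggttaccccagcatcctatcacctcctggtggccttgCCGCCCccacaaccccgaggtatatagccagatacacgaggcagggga

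On these stretches CGB1 and CGB2 were 83.4% identical over 229 aligned positions. CGB8 was 97.9% identical to CGB3 and 97.1% to CGB5, each over 240 positions, and CGB3 was 96.4% identical to CGB5 over 250. The other pairs among these 6 genes and LHB, all those with CGB7 or LHB included, aligned over 102 positions at most. The windows end at annotated starts, which need not be the same place in each copy. A short alignment therefore does not show that 2 copies differ upstream. Matches were sought on both strands to 7 motifs: the SMAD core CAGAC, the SMAD palindrome GTCTAGAC, the AP-1 site TGANTCA, the cAMP response element TGACGTCA, the Sp1 GC box GGGCGG, the AP-2 site GCCNNNGGC and the EGR1 site GCGNGGGCG. The cAMP response element occurred once in CGB1, 53 to 46 bases before the start, and once in CGB2, 31 to 24 bases before it. Among 35116 promoter windows of the same length, 1.65% hold it. CGB8 held 1 GC box and LHB held 1, a motif found in 42.6% of all windows. CGB7 held 2 GC boxes, 1 AP-2 match that overlaps the first of them (19.8% of windows) and 1 SMAD core (38.0% of windows). The SMAD palindrome (0.182% of windows), the AP-1 site (6.57%) and the EGR1 site (8.42%) had no match in these 5 windows. In RefSeq the small non-coding RNA genes SNAR-G1 and SNAR-G2 lie partly inside the windows of CGB1 and CGB2, by 126 and 119 bases. A pseudogene, LOC124904739, covers all 250 bases of the CGB7 window.

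Array medians lay between 4.33 and 4.35, and the background of an array, the value that 95% of its 612 negative controls did not exceed, lay between 4.62 and 4.90. Every array read all 6 CGB features above its background, with the lowest value at 5.93. KRT8, KRT18, EPCAM and CDH1, which mark epithelial cells, stood between 9.02 and 11.45. TGFBI, an extracellular matrix protein induced by TGF-β, was higher by 3.27 ± 0.14 with TGF-β1 than in control (log2, SE, n = 2 arrays a group, limma adjusted p = 0.000464). PMEPA1 and SMAD7, feedback inhibitors of the pathway, were higher by 1.19 ± 0.12 (adjusted p = 0.0124) and 0.81 ± 0.13 (adjusted p = 0.0466). CYP24A1, which inactivates calcitriol, was higher by 4.46 ± 0.35 with calcitriol (limma adjusted p = 0.0247).

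The first comparison asks what TGF-β1 does to the beta genes when it acts alone. CGB1 read 7.65 and 7.71 on the TGF-β1 arrays, against 6.48 and 6.57 on the control arrays (log2 levels). The means were 7.68 ± 0.043 with TGF-β1 and 6.52 ± 0.061 in control (SD, n = 2 each), a difference of 1.15 ± 0.13 (log2, SE) or 2.22-fold. The gap between the groups was far wider than the gap between the arrays of either.

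CGB2 read 7.95 and 7.60 with TGF-β1, against 6.72 and 6.64 in control. Its difference was 1.09 ± 0.15 (log2, SE), 2.14-fold, and it had the widest spread between TGF-β1 arrays of the members, at 7.78 ± 0.25 (SD, n = 2). CGB8, a gene of the hormone's own beta subunit, read 7.91 and 8.00 with TGF-β1, against 6.62 and 6.74 in control. With 1.28 ± 0.13 (log2, SE), 2.43-fold, it had the largest difference of the 4.

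CGB7 read 7.28 and 7.32 with TGF-β1, against 6.61 and 6.95 in control. The difference of 0.53 ± 0.13 (log2, SE), 1.44-fold, was the smallest of the members. Its control arrays were also the furthest apart, at 6.78 ± 0.24 (SD, n = 2), and without control replicate A or B the difference is 0.35 or 0.70. Even so, the groups did not overlap on this feature either.

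In all, 4 of 4 members had both TGF-β1 arrays above both control arrays. Over all 23854 genes 17.1% did so. A difference of at least 1 on the log2 scale, reached by 3 members, was reached by 0.214% of genes. Ranked from the largest rise to the largest fall, CGB8 stood 20th, CGB1 32nd, CGB2 39th and CGB7 389th of 23854. The median over the members was 1.12, beside -0.03 over all genes tested.

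**Figure D1:**
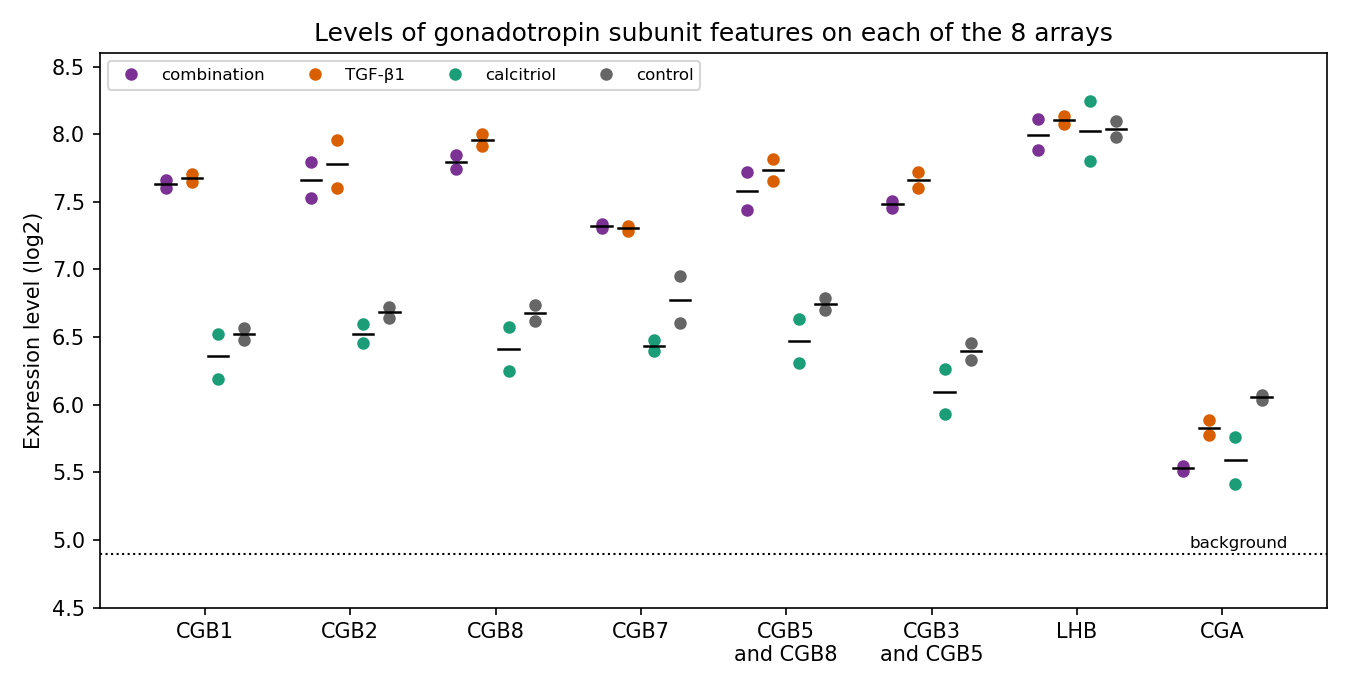
Log2 expression level of each feature (vertical axis) on the 2 arrays of the combination, TGF-β1, calcitriol and control groups (points, left to right), with the group mean as a bar and the highest array background, 4.90, as a dotted line. All CGB features sit higher on the 4 arrays with TGF-β1 than on the 4 without it, while LHB spans 7.80 to 8.25 with no such split. The share of all genes with this split was not counted.

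The features that name several genes gave like values. The feature of CGB3 and CGB5 read 7.60 and 7.72 with TGF-β1, against 6.33 and 6.46 in control, a difference of 1.27 ± 0.15 (log2, SE). The feature of CGB5 and CGB8 read 7.65 and 7.82 with TGF-β1, against 6.70 and 6.79 in control, a difference of 0.99 ± 0.16. After each profile was centred on its own mean, the feature of CGB3 and CGB5 differed from that of CGB8 by a root mean square of 0.018 over the 8 arrays. No other pair of CGB features was nearer than 0.090, the value for CGB1 and CGB8, and the pairs with CGB7 lay between 0.22 and 0.33. Whether both features read the same RNA was not tested.

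The second comparison asks whether the beta genes also stood higher with TGF-β1 when calcitriol was present. CGB1 read 7.66 and 7.60 in the combination, against 6.19 and 6.52 with calcitriol alone, a difference of 1.28 ± 0.13 (log2, SE). CGB2 read 7.53 and 7.80 in the combination, against 6.59 and 6.45 with calcitriol, and differed by 1.14 ± 0.15. CGB8 read 7.75 and 7.84, against 6.25 and 6.57 with calcitriol, and differed by 1.38 ± 0.13.

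CGB7 read 7.33 and 7.31 in the combination, against 6.39 and 6.48 with calcitriol alone. It differed by 0.88 ± 0.13 (log2, SE), again the smallest value of the members. Once more 4 of 4 members had both combination arrays above both calcitriol arrays, where 20.6% of all genes did, and 3 members differed by at least 1, where 0.239% of genes did. Their ranks, again from the largest rise down, were 16 for CGB8, 27 for CGB1, 36 for CGB2 and 95 for CGB7. The median over the members was 1.21, beside -0.02 over all genes. These arrays are other arrays than those of the first comparison, but the members were chosen with both known.

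**Figure D2:**
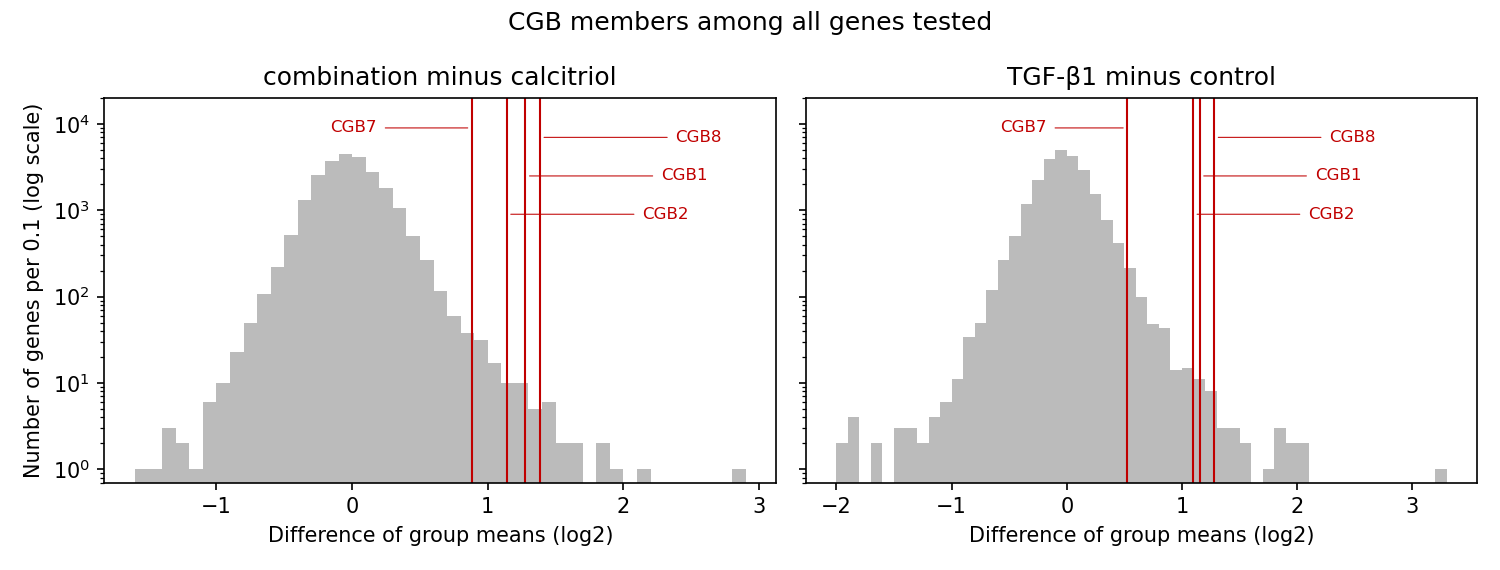
Number of genes (vertical axis, log scale) by difference of group means in steps of 0.1 (horizontal axis, log2), for the combination minus calcitriol and for TGF-β1 minus control, over 23854 genes. Red lines mark the 4 members, of which CGB8 lies furthest right, at 1.38 and 1.28, and CGB7 furthest left, at 0.88 and 0.53.

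Set against untreated cells, the combination gave 1.11 ± 0.13 for CGB1 and 1.12 ± 0.13 for CGB8, and 0.98 ± 0.15 for CGB2 and 0.54 ± 0.13 for CGB7 (log2 differences, SE). Of the 4 members 4 had both combination arrays above both control arrays (20.6% of all genes), and 2 differed by at least 1 (0.381% of genes). The median was 1.04, beside -0.06 over all genes. This comparison uses the control arrays of the first one and the combination arrays of the second, so it adds no separate samples.

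The third question is whether calcitriol moves the beta genes by itself or on top of TGF-β1. With calcitriol alone the members were slightly lower than in control, by -0.17 ± 0.13 for CGB1, -0.16 ± 0.15 for CGB2, -0.34 ± 0.13 for CGB7 and -0.27 ± 0.13 for CGB8 (log2, SE). CGB2, CGB7 and CGB8, 3 of the 4, had both calcitriol arrays below both control arrays, where 23.2% of all genes did. For CGB1 and CGB8 the gap between the calcitriol arrays was larger than these differences. Array A lay below array B by -0.34 for CGB1 and -0.32 for CGB8, and by -0.34 and -0.32 for the features of CGB3 and CGB5 and of CGB5 and CGB8. On CGB2 array A lay above B by 0.14. Without calcitriol array A the difference from control is -0.0001 for CGB1 and -0.11 for CGB8, and without array B it is -0.34 and -0.43. For CGB2 it is -0.23 without calcitriol array A and -0.09 without array B. For CGB7, the largest of these differences, it is -0.51 without control array A and -0.17 without control array B.

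The combination differed from TGF-β1 alone by -0.04 ± 0.13 for CGB1, -0.11 ± 0.15 for CGB2, 0.02 ± 0.13 for CGB7 and -0.16 ± 0.13 for CGB8 (log2, SE). CGB8 was the single member with both combination arrays below both TGF-β1 arrays, where 25.7% of all genes did so. The interaction, which is 0 where the log2 effects of the agents add up, was 0.12 ± 0.18 for CGB1, 0.04 ± 0.21 for CGB2, 0.36 ± 0.18 for CGB7 and 0.11 ± 0.19 for CGB8. For CGB1, CGB2 and CGB8 the interaction was smaller than its standard error, and its sign changed when 1 array was left out. It was -0.04 for CGB1 and -0.06 for CGB8 without calcitriol array A, against 0.29 and 0.27 without calcitriol array B. For CGB2 it was 0.22 without TGF-β1 array A and -0.13 without array B. For CGB7 it was 0.53 without control array A and 0.19 without control array B. The combination minus TGF-β1 likewise changed sign for CGB2, at 0.06 without TGF-β1 array A and -0.29 without array B, and for CGB7, at -0.0019 without TGF-β1 array A.

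**Figure D3:**
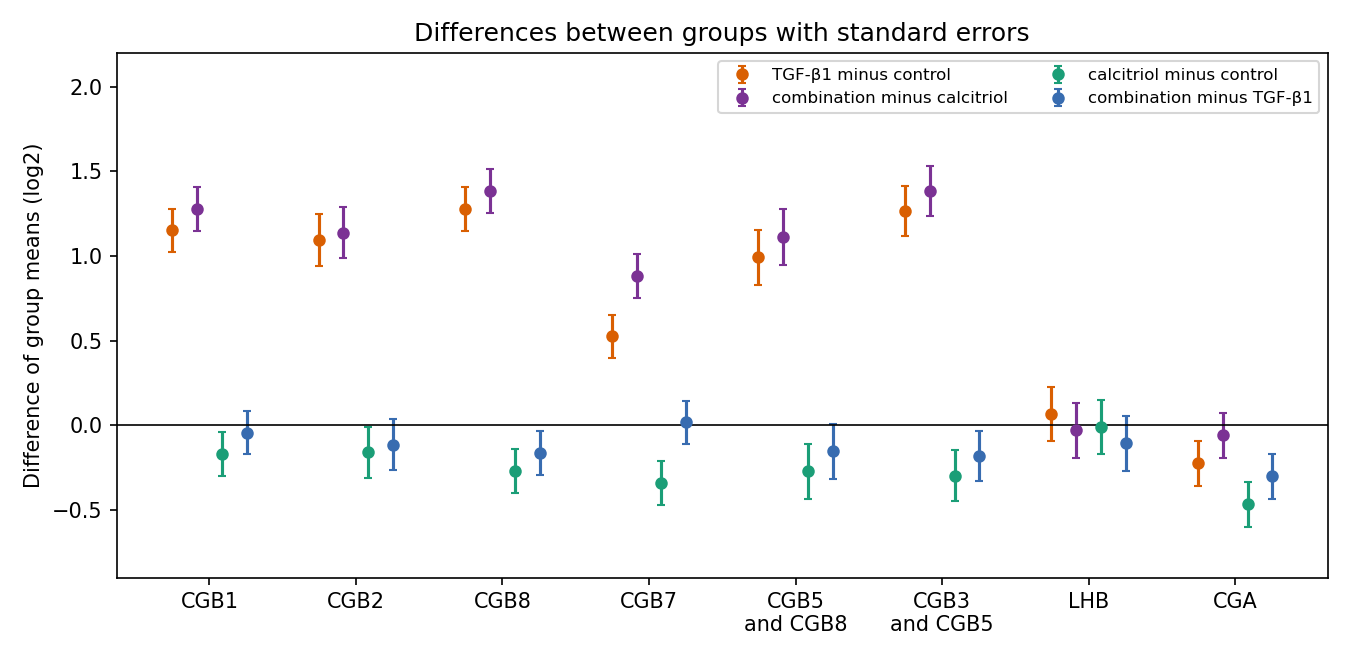
Differences of group means on the log2 scale (points) with standard errors (bars) for 4 comparisons, each named as first group minus second, for the CGB features, LHB and CGA. For all 6 CGB features the orange and purple points, which set TGF-β1 against no TGF-β1, lie between 0.53 and 1.38, and the green and blue points, which set calcitriol against no calcitriol, lie between -0.34 and 0.02.

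The other subunits of the hormone family, fixed as a list, were tested in the same limma fit. LHB, the parent gene, read 8.08 and 8.13 with TGF-β1, against 7.98 and 8.10 in control, with overlapping arrays (0.06 ± 0.16, log2, SE, limma adjusted p = 0.904). In the combination LHB read 8.11 and 7.88, against 8.25 and 7.80 with calcitriol (-0.03 ± 0.16, adjusted p = 0.954). Neither difference exceeded the spread between LHB's own arrays, whose groups overlap where all CGB features split.

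CGA, the alpha subunit that the beta subunit needs to form the hormone, read 5.78 and 5.88 with TGF-β1, against 6.07 and 6.04 in control (-0.22 ± 0.13, log2, SE, limma adjusted p = 0.544). With calcitriol it read 5.76 and 5.41 (-0.47 ± 0.13 against control, adjusted p = 0.57). In the combination it read 5.55 and 5.51, the lowest pair (-0.53 ± 0.13 against control, adjusted p = 0.0777). None of these passed the threshold of 0.05.

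FSHB, the beta subunit of follicle-stimulating hormone, and GPHA2 and GPHB5, the subunits of thyrostimulin, lay within 0.22 of control with TGF-β1 (log2 differences 0.10, -0.07 and -0.22, limma adjusted p = 0.849, 0.888 and 0.555). TSHB, the thyrotropin subunit, and the receptors LHCGR, FSHR and TSHR were above background on 0 arrays and were not tested. Of the 11 genes on this list 5 were tested, and 0 of these passed in limma in any of 6 contrasts. At an unadjusted p under 0.05 there was 1 with calcitriol against control, 1 with the combination against control and 0 in each of the others. Over all genes 0.608% passed with TGF-β1 against control, 0.00838% with calcitriol against control, 2.27% with the combination against control, 0.587% with the combination against calcitriol, and 0% with the combination against TGF-β1 and in the interaction. At an unadjusted p under 0.05 the shares were 12.6%, 7.34%, 23.8%, 14.7%, 9.26% and 5.15% in the same order.

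The protein-coding genes on either side of the cluster on chromosome 19 were compared in the same way. RUVBL2, an AAA ATPase of chromatin remodelling complexes and the nearest protein-coding neighbour on the LHB side, read 8.19 and 8.30 with TGF-β1, against 8.44 and 8.45 in control (-0.20 ± 0.10, log2, SE, limma adjusted p = 0.478). NTF4, a neurotrophin and the nearest neighbour on the CGB7 side, read 6.17 and 6.44 with TGF-β1, against 6.20 and 6.39 in control (0.01 ± 0.15, adjusted p = 0.987). Of the 10 protein-coding genes on either side 19 of 20 were tested and 0 passed in any of the 6 contrasts in limma. At an unadjusted p under 0.05 there was 1 in each comparison of an agent or the combination with control and 0 elsewhere. Over all genes the shares against control were 12.6% with TGF-β1, 7.34% with calcitriol and 23.8% with the combination. The log2 differences of the 19 lay between -0.29 and 0.26 with TGF-β1 and between -0.51 and 0.22 for the combination against calcitriol.

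**Figure D4:**
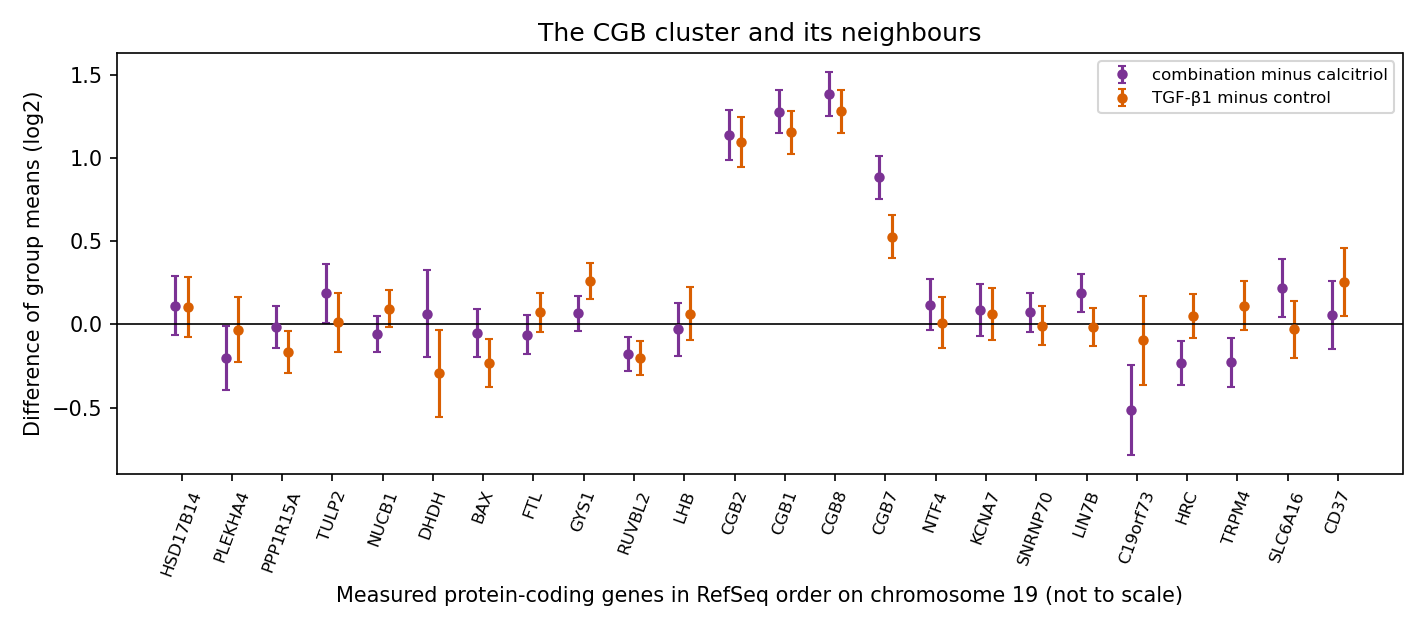
Differences of group means (log2, points) with standard errors (bars) for measured protein-coding genes in the order in which RefSeq places them along chromosome 19, not to scale. CGB2, CGB1, CGB8 and CGB7 stand between 0.53 and 1.38, and LHB and the 19 neighbours stand between -0.51 and 0.26.

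Between LHB and CGB7 RefSeq places 9 other genes, of which 5 had a feature that was tested. They were chosen after their values were seen. The neurotrophin pseudogene NTF6G read 5.44 and 5.38 in the combination, against 4.56 and 4.84 in control, and was higher (0.71 ± 0.13, log2, SE, limma adjusted p = 0.0424). With TGF-β1 alone it read 5.40 and 5.43 and did not pass (0.71 ± 0.13, adjusted p = 0.0725). Control replicate A was at background on this feature. Whether the call for NTF6G holds without single arrays was not tested. A related pseudogene, NTF6A, read 5.95 and 5.98 with TGF-β1, against 4.99 and 5.17 in control, and did not pass either (0.88 ± 0.26, adjusted p = 0.233).

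SNAR-G1, which overlaps the window upstream of CGB1, read 5.92 and 5.82 with TGF-β1, against 5.95 and 6.04 in control (-0.13 ± 0.10, log2, SE, limma adjusted p = 0.685). SNAR-G2, at the start of CGB2, read 6.37 and 6.52 with TGF-β1, against 6.44 and 6.46 in control (-0.0054 ± 0.12, adjusted p = 0.992). NTF6B, another neurotrophin pseudogene, stood at -0.21 ± 0.15 (adjusted p = 0.63). None of these 3 passed the test.

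Transcription factors known to act on gonadotropin subunit promoters formed another fixed list. Of 18 genes 16 were tested, and with TGF-β1 against control 0 passed in limma. Of the 16, 5 had an unadjusted p under 0.05, where 12.6% of all genes did. The median log2 difference was -0.02, beside -0.03 over all genes. JUN, an AP-1 subunit, read 7.61 and 7.55 in the combination, against 6.998 and 6.809 with calcitriol, and was higher (0.68 ± 0.11, log2, SE, adjusted p = 0.0475). Its difference with TGF-β1 alone was 0.49 ± 0.11 and did not pass (adjusted p = 0.115). The other call in the list over the 6 contrasts was PPARG, a nuclear receptor active in trophoblast. It read 9.81 and 9.76 in the combination, against 10.29 and 10.26 in control, and was lower (-0.48 ± 0.093, adjusted p = 0.0451). Leaving out any 1 of the 8 arrays ended both calls. The differences then lay between 0.58 and 0.77 for JUN and between -0.51 and -0.46 for PPARG. They did not move where the array left out belonged to neither of the compared groups.

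AP-2 factors, ETS factors and ATF3, which act on the alpha and beta promoters in placental cells, did not pass in limma, and they are named after their values were seen. With TGF-β1 against control the log2 differences were -0.10 for TFAP2A (adjusted p = 0.78), 0.11 for TFAP2C (adjusted p = 0.771), 0.44 for ETS2 (adjusted p = 0.207) and 0.59 for ATF3 (adjusted p = 0.128). GCM1, the factor that drives syncytiotrophoblast formation, was above background on 0 arrays.

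Placental hormones and other trophoblast genes were the last fixed list. Of 38 genes 25 were tested, and the other 13 were above background on 0 arrays, among them CYP19A1, the aromatase, INSL4, a placental relaxin-like peptide, and the syncytin gene ERVFRD-1. The low-value filter, at 4.34, lies below the background of every array. Among the tested genes PSG1 and PSG9 were also above background on 0 arrays, and PSG4, PAPPA and ERVW-1 on 1. In limma 0 passed with TGF-β1 against control. Of the 25, 6 had an unadjusted p under 0.05, where 12.6% of all genes did. The median was 0.0017, beside -0.03 over all genes. INHBA, the activin subunit, read 10.67 and 10.54 in the combination, against 10.12 and 9.96 in control, and was the 1 gene of the list that passed in any contrast (0.57 ± 0.11, log2, SE, adjusted p = 0.0427). That call too was lost without any 1 array, with differences between 0.49 and 0.65. The difference did not move where the array left out belonged to neither of the compared groups. TFPI2, a protease inhibitor abundant in placenta and named after its values were seen, read 10.93 and 11.15 with TGF-β1, against 10.39 and 10.37 in control, and did not pass (0.66 ± 0.11, adjusted p = 0.0557). GDF15 and KISS1, named likewise, stood lower with TGF-β1 than in control and did not pass (-0.51 ± 0.21, adjusted p = 0.38, and -0.53 ± 0.18, adjusted p = 0.287, in limma). Every GDF15 array with TGF-β1 lay below every array without it, and the same held for PEG10. ADAM12, INHBA, TFPI2 and HSD3B1 split the other way, with all arrays with TGF-β1 above all arrays without it. For ADAM12 the lowest array with TGF-β1 read 7.66 and the highest without it 7.46. PEG10 and ADAM12 were also named after their values were seen. The share of all genes with either split was not counted. For GDF15 the difference for the combination against calcitriol was -0.70 ± 0.21.

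The summed level of 6 trophoblast markers overlapped between the arrays with and without TGF-β1, but 1 of them, HSD3B1, did not. Of the 6, CGA, CSH1 and HSD3B1 were above background on 8 arrays, ERVW-1 on 1, and GCM1 and PSG1 on 0. Their summed log2 level was 28.94 and 28.61 in the combination, 28.90 and 29.39 with TGF-β1, 28.29 and 27.76 with calcitriol, and 28.12 and 28.87 in control. HSD3B1, a steroid dehydrogenase of the placenta, read 5.78 and 6.01 in the combination, 5.37 and 5.77 with TGF-β1, 5.168 and 5.052 with calcitriol, and 5.24 and 5.27 in control. All 4 of its arrays with TGF-β1 were above all 4 without it, the same split as in the CGB features. How many of all genes have this split was not counted. The differences of HSD3B1 did not pass in limma (0.32 ± 0.15 for TGF-β1 against control, adjusted p = 0.449, and 0.78 ± 0.15 for the combination against calcitriol, adjusted p = 0.0944, log2, SE). The part of such cells in the CGB levels was not tested. Of the germ cell tumour markers, POU5F1 was above background on 8 arrays, LIN28A on 7 and NANOG on 0. In these bulk samples a change in how many cells express a gene and a change in RNA per cell cannot be told apart.

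The genes whose profiles came nearest to that of the beta genes were found among 14637 other protein-coding genes. Likeness was the root-mean-square difference, over the 8 arrays, between a gene's centred log2 levels and the mean centred profile of the 4 members. It was 0.069 for IGF1R, the receptor for insulin-like growth factors, 0.096 for ALOX5AP, the activating protein of 5-lipoxygenase, and 0.104 for SKIL, a SMAD co-repressor. PMEPA1, a transmembrane inhibitor of TGF-β signalling, and VGLL3, a TEAD cofactor, followed at 0.118. COL6A3, a collagen chain, stood at 0.122, PODXL, a sialomucin, at 0.132 and the cytokine IL1B at 0.138.

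For scale, the members themselves lay at 0.091 for CGB1, 0.132 for CGB2, 0.136 for CGB8 and 0.211 for CGB7 from their own mean. IGF1R averaged 8.93 ± 0.041 in the combination, 9.03 ± 0.050 with TGF-β1, 7.87 ± 0.0052 with calcitriol and 7.96 ± 0.098 in control (SD, n = 2 each). It had the same split as the beta genes, with all 4 arrays with TGF-β1 above all 4 without it. Having been picked for this pattern, these 8 genes carry no test here, and their log2 differences were 0.80 to 1.19 for TGF-β1 against control and 0.93 to 1.25 for the combination against calcitriol.

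**Figure D5:**
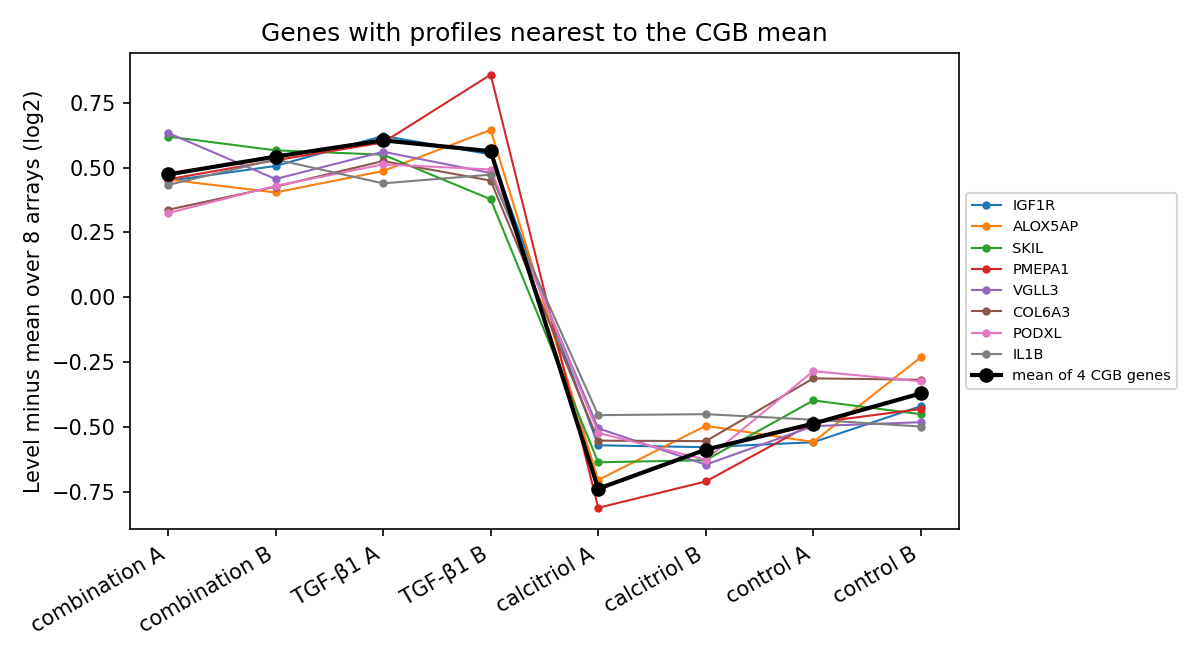
Log2 level minus the gene's mean over the 8 arrays (vertical axis) on each array (horizontal axis) for the 8 nearest genes (coloured lines) and the mean of the 4 CGB genes (black line). All lines stand above 0 on the 4 arrays with TGF-β1 and below 0 on the 4 without it.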

How the data were processed

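PC-3 RNA was measured on 8 Clariom D arrays. The authors deposited log2 values for 138745 features, 1 per array. The submitters' processing notes name RMA, oligo and limma and give no version, and the genome build is not given in the sources used here. No scanner file was used. Of the features, 36176 have 1 symbol in the platform's annotation and 1119 have several. Those above 4.34, the 50th percentile of all values, on at least 2 arrays were kept, and the feature with the highest mean stood for a gene, which left 23854 of 33616 genes. All 4 members passed on all arrays.

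A model with 1 mean per group was fitted in limma 3.58.1 (R 4.3.3, and data.table at version 1.17.8) with empirical Bayes moderation, 4 residual degrees of freedom and 6 contrasts. Tests were two-sided with Benjamini-Hochberg adjustment over all genes, and genes at an adjusted p under 0.05 are called higher or lower. The fit was tested on simulated data. Standard errors of features with several symbols come from the same model over all features that passed. The exact permutation of 2 arrays against 2 cannot reach 0.05. The number of arrays limits the precision.

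The members and the lists were chosen with earlier results of these data known. Named are the members, all measured genes of the hormone list, up to 6 genes of each other list that passed in any contrast, the nearest neighbours on either side, the treatment checks and the 8 nearest profiles; regulators and placental genes that did not pass were named after their values were seen. Promoter windows come from RefSeq (all 7 genes of the cluster matched) and were aligned with Biopython 1.88 with free end gaps. Alternatives covered normalization, the replicate letter, the choice of feature, each array, the low-value filter, moderation and the set of genes. The replicate letters did not pair the arrays: the deviations of A arrays from their group means correlated between -0.08 and 0.08 across genes between groups.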

Additional observations from a re-analysis of the deposited data

How the results depend on the processing

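The members' median difference kept its direction in every comparison of TGF-β1 or the combination with control or calcitriol under the alternatives run. Leaving out 1 array at a time, it lay between 1.05 and 1.18 for TGF-β1 against control, 0.96 and 1.10 for the combination against control, 1.16 and 1.26 for the combination against calcitriol, -0.36 and -0.17 for calcitriol against control, -0.11 and -0.04 for the combination against TGF-β1, and 0.035 and 0.28 for the interaction. After cyclic loess over protein-coding genes the combination against control stood at 1.16, against 1.04 as deposited. Within letter A alone and letter B alone, a setting chosen after seeing the data, the interaction was 0.23 and 0.20, against 0.11. For single members the interaction and the combination against TGF-β1 changed sign without 1 array, as given with those values. Each member has 1 feature, so averaging features changed nothing. The replicate block cannot change these differences of group means either. The settings for the low-value filter, moderation and the set of genes were not run for the members' differences.

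Counts of genes called, which serve here as background, moved more. For TGF-β1 against control, 145 became 43 with the replicate letter as a block (replicate block), 38 with no low-value filter, 719 with limma's trend and 247 over protein-coding genes alone. For the combination against control, 542 became 213, 134, 2996 and 977 in the same order of settings. For the combination against calcitriol, 140 became 66 with the replicate block, 56 with no filter and 976 with the trend. For calcitriol against control, 2 became 0 with the replicate block and 19 with the trend. For the combination against TGF-β1 and the interaction, 0 became 6 and 1 with the trend. Without 1 array the counts lay between 12 and 48 for TGF-β1 against control, 13 and 218 for the combination against control, 0 and 83 for the combination against calcitriol, 0 and 2 for calcitriol against control, and 0 and 1 for the combination against TGF-β1.

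Of the 4 fixed lists together, 0 genes passed with TGF-β1 against control, 2 with the combination against control and 1 with the combination against calcitriol. With TGF-β1 against control this was 1 after loess, over features above the negative controls and over protein-coding genes, and 7 with the trend. With the combination against control it was 4 after loess and above the negative controls, 0 with the replicate block and with no filter, 13 with the trend and 6 over protein-coding genes. With the combination against calcitriol it was 0 with the block and with no filter, 6 with the trend and 2 over protein-coding genes. Without any 1 array it was 0 in each. With the trend, JUN, INHBA and PPARG passed for TGF-β1 against control (adjusted p = 0.0281, 0.000383 and 0.00561 in limma). INHBA and PPARG passed for the combination against calcitriol with the trend (adjusted p = 9.89e-05 and 0.0328 in limma). For the combination against control JUN passed after loess and above the negative controls (adjusted p = 0.0305 and 0.0472 in limma). JUN passed there also with the trend and over protein-coding genes (adjusted p = 0.0118 and 0.0346 in limma). PPARG did not pass there after loess (adjusted p = 0.072 in limma). CGA passed there with the trend (adjusted p = 0.0492 in limma). The letters are tied to nothing shared by the labels, so a call lost under the block is not described as a weaker effect. Apart from the construction of each setting, the cause was not tested.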
